A study of Mus musculus with 20 samples.

Results

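The 10 genes named here as pericentral Wnt target genes were followed in the livers of 20 mice: Glul, Slc1a2, Rhbg, Axin2, Rnf43, Znrf3, Nkd1, Lgr5, Tbx3 and Ctnnb1. They were chosen by name, as genes that Wnt signalling is known to drive in the hepatocytes around the central vein, together with Ctnnb1, which carries the signal. All 10 were measured, out of 18193 genes, each by the probe set of that gene alone with the highest mean over the 20 arrays. The mice were males of the inbred strain C57BL/6J, with no allele or transgene named in the labels, and fell into 2 groups. A high-fat diet with 45 kcal% fat was fed to the 10 HFD mice, and the 10 MSXH mice received it with maple syrup extract added at 0.05%. Mice of both groups arrived at 3 weeks of age, were first kept on 10 kcal% fat, and are given as 8 weeks old. The diets lasted 4 weeks, and the mice fasted 16 h before their livers were removed on day 30. The study's low-fat group and its group on a lower extract dose were not analysed here.

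Wnt proteins bind Frizzled receptors and stop the destruction complex from removing β-catenin, which then acts with TCF/LEF factors on target genes. In the liver, Wnt ligands and R-spondins come largely from endothelial cells of the central vein, and the nearest hepatocytes respond. Those hepatocytes take up ammonia and glutamate and make glutamine, while hepatocytes near the portal vein make urea. Several targets feed back on the pathway at the receptor. All RNA came from whole liver, so fewer cells of a type and less RNA per cell cannot be told apart.

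Sequences from 250 bases before to 50 bases after the annotated start were searched for TCF/LEF-type letters, because these motifs are the best known feature of Wnt targets. RefSeq promoters (build GRCm38.p6, written on the gene's own strand) matched 6 of the 10 genes: Glul, Slc1a2, Axin2, Rnf43, Nkd1 and Ctnnb1. Both strands were searched for CTTTGATC and for its shorter form CTTTGAT, which lies inside it. The variant CTTTGAA was searched as well, and for HNF4-type sites TGACCTTTG, which can share its last letters with the others. Promoters of 3 genes are shown with any match in capitals. Glul (chr1:153899679-153899978, plus strand) is the best known gene of the set. Slc1a2 (chr2:102706188-102706487, plus strand) was the 1 gene of the 6 with a match, and Lect2 (chr13:56548489-56548788, minus strand) is not in the set but followed Rhbg most closely over the mice.
Glul: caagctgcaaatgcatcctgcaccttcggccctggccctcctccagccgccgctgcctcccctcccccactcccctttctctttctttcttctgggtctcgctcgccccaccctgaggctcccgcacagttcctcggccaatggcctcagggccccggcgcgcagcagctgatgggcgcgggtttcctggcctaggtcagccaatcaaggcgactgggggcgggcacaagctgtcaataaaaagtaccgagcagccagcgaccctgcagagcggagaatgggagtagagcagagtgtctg
Slc1a2: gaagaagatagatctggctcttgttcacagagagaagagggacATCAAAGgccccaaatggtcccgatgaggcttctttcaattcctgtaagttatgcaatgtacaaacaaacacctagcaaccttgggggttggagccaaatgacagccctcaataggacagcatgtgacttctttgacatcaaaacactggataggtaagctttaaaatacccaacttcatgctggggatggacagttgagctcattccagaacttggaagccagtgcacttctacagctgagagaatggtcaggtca
Lect2: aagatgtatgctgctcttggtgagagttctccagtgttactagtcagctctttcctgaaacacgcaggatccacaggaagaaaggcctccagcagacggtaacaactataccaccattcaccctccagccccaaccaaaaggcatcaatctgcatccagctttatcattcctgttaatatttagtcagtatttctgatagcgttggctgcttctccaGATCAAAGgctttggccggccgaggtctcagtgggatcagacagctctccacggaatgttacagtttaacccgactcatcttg
The capitals in Slc1a2 are ATCAAAG, which is CTTTGAT on the opposite strand, and their first base lies 207 bases before the start. Those in Lect2 are GATCAAAG, which is CTTTGATC on the opposite strand, with the first base 33 bases before the start. CTTTGATC was in 0.938% of the 32851 promoters of the reference and its shorter form in 3.73%. The variant ending in AA was in 5.14% and the HNF4-type motif in 0.478%. The Glul window held none of the 4 motifs. Such matches are letters in a window, and no binding was measured.

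The deposited values behave unusually, and this sets how every value below is written. They were taken as log2 levels, yet the median SD of a gene over the 20 mice was 10.4 millionths of a log2 unit. Medians of the arrays spanned 176 millionths. Such spreads are far below ordinary variation between animals, so differences cannot be read as fold changes. Each mouse is therefore given as its deviation from the median mouse, in millionths of a log2 unit. Diet differences are written as Hedges' g, always MSXH minus HFD: the gap between the means in units of the pooled SD, with a correction for sample size. Levels of different genes are not compared, since each probe set has its own response. The hepatocyte markers measured (6 of 8 listed, such as Alb and Apoa1) averaged 13.50 to 13.51 log2 in every mouse, all 6 above 6.51, the median level of all probe sets. Bile duct markers averaged 6.35, with 2 of 5 above that level, and lymphocyte markers 6.65, with 2 of 6 above it.

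Neither Glul nor any other of the 10 genes passed the test for a diet difference. In the limma fit 0 of 10 passed an adjusted p of 0.05, and 0 of 10 had an unadjusted p under 0.05. Over all 18193 genes the same test called 0 (0%) after adjustment and 780 (4.29%) without it, 2.06% higher and 2.23% lower in MSXH. The share of the 10 genes called was no larger than that of all genes. Of the 10, 4 were higher and 6 lower in MSXH, with a median g of -0.11, against -0.0082 over all genes tested. In every case the 2 groups overlapped over most of their range, as the plot by mouse shows.

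**Figure D1:**
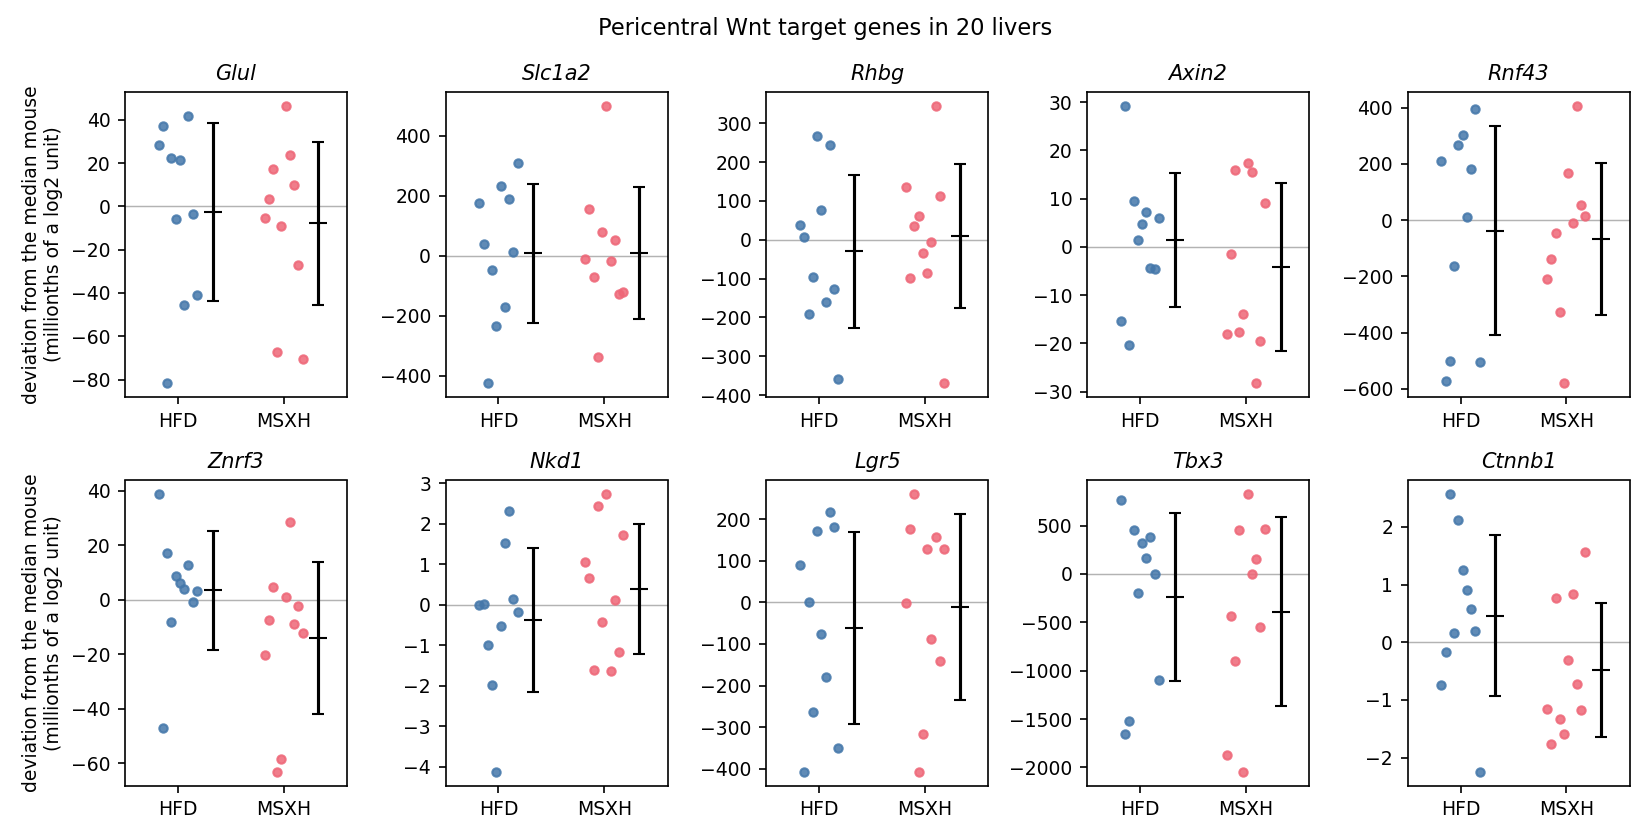
Deviation of each mouse from the median mouse (vertical axis, millionths of a log2 unit, own scale for each gene) for the 10 genes, with 10 HFD and 10 MSXH mice as points and the group mean with SD as a bar. The groups overlap for each gene, and the scales run from a few millionths for Ctnnb1 and Nkd1 to a span of 2869 for Tbx3.

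Glul, glutamine synthetase, joins ammonia to glutamate and is found in the hepatocytes next to the central vein. Its mean level was 11.89 log2. Deviations in HFD mice ran from -81.7 through a median of 8.93 to 41.8 millionths, and in MSXH mice from -70.6 through -0.82 to 46.4. Low values occurred under both diets, with HFD replicate 3, MSXH replicate 10 and MSXH replicate 4 lowest. The difference was g = -0.12 (95% interval -1.0 to 0.75, limma unadjusted p = 0.771, adjusted p = 0.999).

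Slc1a2, the glutamate transporter GLT-1, brings glutamate into these cells. Its mean level was 9.79 log2. HFD mice ran from -425.9 through 25.3 to 311.1 millionths, and MSXH mice from -338.3 through -15.4 to 500.1. The highest mouse was MSXH replicate 6, and HFD replicate 3 and MSXH replicate 4 were lowest, as they were among the lowest for Glul. The group means were nearly equal (g = 0.0069, 95% interval -0.87 to 0.88).

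Rhbg, an ammonia transporter of the cell membrane, had a mean level of 7.05 log2. HFD mice ran from -358.3 through -45.4 to 266.9 millionths, and MSXH mice from -369.8 through 14.3 to 344.7. Each group thus held both very low mice (MSXH replicate 10, HFD replicate 10) and very high ones (MSXH replicate 8, HFD replicate 5). In 7 MSXH mice the value exceeded the HFD median, with g = 0.20 (95% interval -0.68 to 1.08).

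The feedback regulators come next. Axin2, a scaffold of the destruction complex that β-catenin itself switches on, had a mean level of 7.0 log2. It ran from -20.3 through 3.13 to 29.2 millionths in HFD mice and from -28.3 through -7.75 to 17.4 in MSXH mice. Both groups spread to either side of the median mouse, 4 of 10 MSXH mice exceeded the HFD median, and g was -0.33 (95% interval -1.22 to 0.55).

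Rnf43 and Znrf3 are related membrane ubiquitin ligases that remove Frizzled receptors from the cell surface. Rnf43, at 6.63 log2, ran from -570.5 through 95.8 to 394.2 millionths in HFD mice and from -580.0 through -28.5 to 406.6 in MSXH mice. 4 mice stood apart at the low end, 3 of them HFD and 1 MSXH, and g was -0.087 (95% interval -0.96 to 0.79). Znrf3, at 7.39 log2, ran from -47.1 through 4.98 to 38.6 millionths in HFD mice and from -63.1 through -8.16 to 28.4 in MSXH mice. For Znrf3 only 1 of 10 MSXH mice exceeded the HFD median, with g = -0.66 (95% interval -1.56 to 0.24, limma unadjusted p = 0.132, adjusted p = 0.999). Without HFD replicate 2, its g was -0.98 and the unadjusted p was 0.0351, with an adjusted p of 0.998. Its direction turned with a common median of the arrays (g = 0.028), after quantile normalization (0.011) and in the other Znrf3 probe set (0.082). A common median adds the same amount to the diet difference of every gene, so the first of these turns follows from that shift.

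Nkd1, a cytoplasmic inhibitor that binds Dishevelled, had a mean level of 6.89 log2 and hardly varied. HFD mice lay between -4.12 and 2.30 millionths (median -0.094) and MSXH mice between -1.63 and 2.72 (median 0.381). Its SD of 1.69 millionths was at percentile 2.07 of all genes, and g was 0.44 (95% interval -0.45 to 1.32).

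Lgr5, a receptor for R-spondins that keeps Rnf43 and Znrf3 from acting, was the 1 gene of the set whose mean, 6.45 log2, lay below the median level of the probe sets. HFD mice ran from -407.8 through -37.4 to 217.3 millionths, and MSXH mice from -407.3 through 63.0 to 260.3. Low mice came from both diets (HFD replicate 2, MSXH replicate 4, HFD replicate 10). The difference was g = 0.22 (95% interval -0.66 to 1.09).

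Tbx3, a T-box transcription factor, had a mean level of 7.42 log2 and the widest spread of the set, an SD of 903 millionths. HFD mice ran from -1653 through 83.2 to 763.3 millionths, and MSXH mice from -2045 through -217.7 to 823.2. A few very low mice in each group set this spread, MSXH replicates 5 and 1 and HFD replicate 2 being lowest. The difference was g = -0.16 (95% interval -1.04 to 0.72).

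Ctnnb1 encodes β-catenin, which is regulated mainly by breakdown of the protein. Its mean level was 12.05 log2 and its SD 1.34 millionths, at percentile 1.25 of all genes. HFD mice lay between -2.25 and 2.57 millionths (median 0.385) and MSXH mice between -1.76 and 1.57 (median -0.94). It had the lowest g of the 10 genes, -0.71 (95% interval -1.61 to 0.19, limma unadjusted p = 0.222, adjusted p = 0.999), and 3 of 10 MSXH mice exceeded the HFD median.

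**Figure D2:**
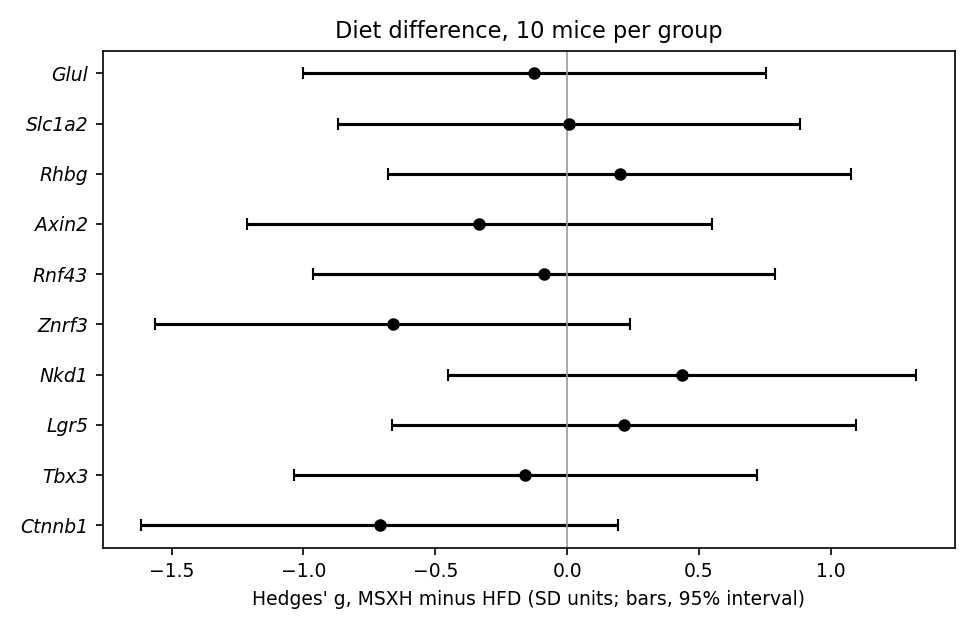
Hedges' g for the 10 genes (horizontal axis, SD units, MSXH minus HFD), with points for the estimate and bars for the 95% interval, from 10 mice per group. Every interval includes 0, from Ctnnb1 at -0.71 to Nkd1 at 0.44.

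These intervals reach about 1 SD to either side. For this comparison, simulated data over 18193 genes gave limma calls for 4% of the genes moved by 1 SD, for 48% of those moved by 2 SD and for 94% at 3 SD. Genes were simulated as independent and all sizes were moved in the same data set, so recovery may be lower where a single gene moves. A diet difference near 1 SD was thus rarely detectable with 20 arrays. Direction also depended on the probe set: 8 of the 10 genes have others, 17 in all, and 11 of these 17 had a g of the opposite sign.

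The rest of the Wnt pathway gave the same picture. Of 62 listed genes 61 were measured, 30 higher and 31 lower in MSXH, with 0 past the adjusted and 0 past the unadjusted threshold (limma). The median g was -0.00048. Among ligands and R-spondins, 10 of 14 were higher, beside 8965 of 18193 over all genes, and this count was not tested. Their median g was 0.26, with Wnt3 highest at 0.82. The central vein signals Wnt2, Wnt9b and Rspo3 had g of -0.018, 0.038 and 0.31. The R-spondin receptor Lgr4 had g = -0.22, and the destruction complex members Apc and Gsk3b had -0.060 and 0.40. Pygo1, a nuclear partner of β-catenin, had the highest g of the list at 0.98, and Lef1, a TCF/LEF factor, the lowest at -0.74. Tcf7l2, the TCF factor best known in liver, had g = -0.40.

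Other zonated genes did not pass either. Of 19 measured pericentral genes outside the set, 7 were higher and 11 lower, and Cyp2e1 was equal within rounding. Oat, ornithine aminotransferase, had the largest difference of that list, g = -1.38 (95% interval -2.35 to -0.40, limma unadjusted p = 0.00404, adjusted p = 0.999). Cyp1a2, a drug-metabolising P450, had g = -0.19. Of 17 periportal genes 4 were higher and 13 lower, 0 past either threshold, with Cyp2f2 at -0.13 and the histidine-degrading enzyme Hal at -0.15. Endothelial markers, a list that also holds Wnt2, Wnt9b and Rspo3, were higher in 12 of 14. Cdh13, T-cadherin, was the 1 marker of that list with an unadjusted p under 0.05 (g = 0.97, limma unadjusted p = 0.0330, adjusted p = 0.999). Over all 18193 genes 8965 were higher and 9226 lower, and these counts by direction were not tested. Array medians deviated by a mean of 9.65 millionths in HFD and -9.65 in MSXH mice, so the direction of small differences depends on scaling.

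Whether the 10 genes moved together was asked mouse by mouse, with Pearson r and Spearman rho over the 20 mice for all 45 pairs. A pair was called when its p passed 0.05 after adjustment over all other genes for both partners. No pair was called (0 of 45, smallest adjusted p = 0.203). The count depended on scaling: 10 of 45 were called with every array moved to a common median, and 1 of 28 after quantile normalization. Moving the arrays adds each array's shift to all its genes, and the array medians spanned 176 millionths. Genes that vary less than that then share the shift, so these 10 calls cannot be told apart from the shift itself. Without adjustment 6 pairs had a Pearson p under 0.05, all with r above 0. That is 13.3% of pairs, beside 8.59% for the 10 genes with all other genes in either direction and 5.25% with r above 0. After adjustment, 0.0203% of the relations with all other genes were called. The unadjusted share was 4.11% for Glul, 8.97% for Slc1a2, 10.4% for Rhbg, 3.57% for Axin2 and 10.9% for Rnf43. It was 10.3% for Znrf3, 4.94% for Nkd1, 10.3% for Lgr5, 9.47% for Tbx3 and 12.8% for Ctnnb1, and after adjustment 0% for each but Rhbg and Slc1a2. Values of r were above 0 in 30 of 45 pairs (66.7%), beside 51.5% with all other genes, and the median r was 0.195, beside 0.0105.

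**Figure D3:**
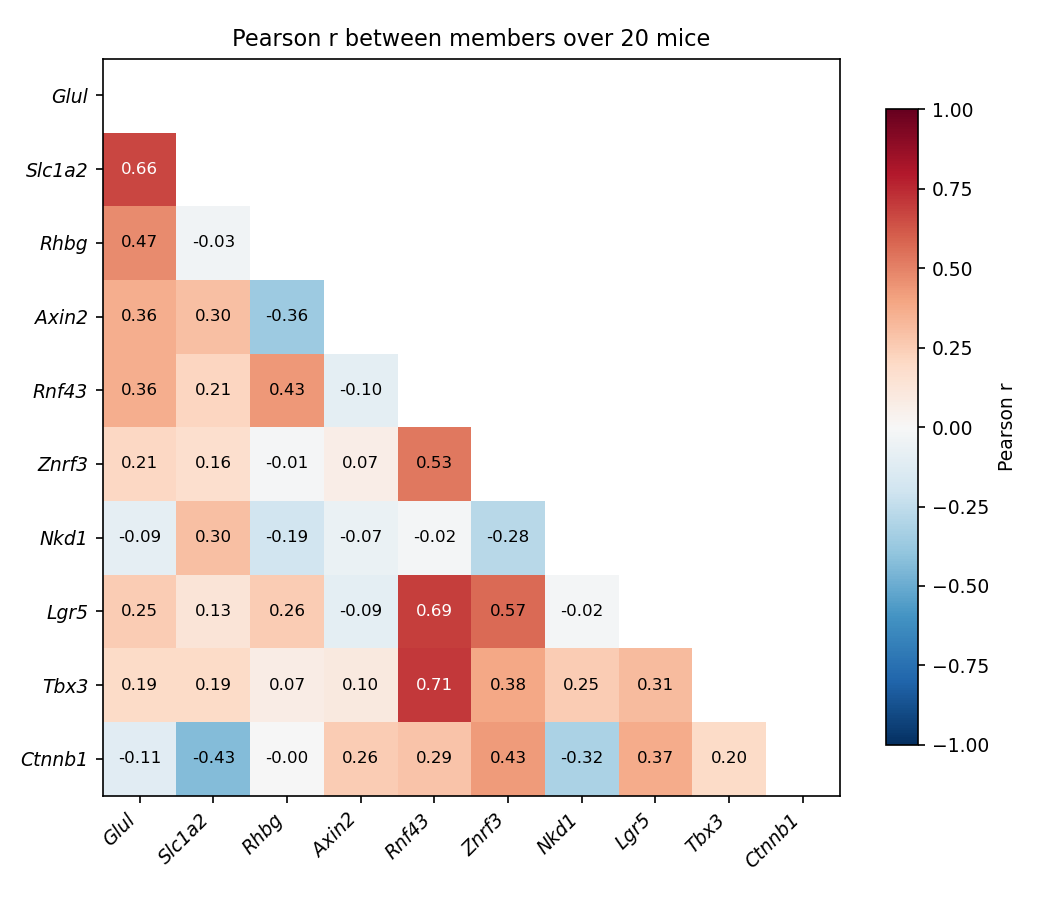
Pearson r over 20 mice for each of the 45 pairs (colour and printed number, blue below 0 and red above 0). Glul, Slc1a2 and Rhbg form red cells at the top left, though Slc1a2 with Rhbg is near 0, and Rnf43 with Znrf3, Lgr5 and Tbx3 forms another red group.

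The first group was Glul with Slc1a2 and Glul with Rhbg, all genes of ammonia and glutamate handling. Slc1a2 and Rhbg themselves were not related (r = -0.0326, permutation p = 0.892), so the 3 genes did not move as a whole. Glul and Slc1a2 had r = 0.664 (permutation p = 0.00119) and rho = 0.626 (permutation p = 0.00378), with r = 0.577 in HFD and 0.770 in MSXH mice. The adjusted p over all genes was 0.999. Without HFD replicate 3 and MSXH replicate 10, the mice farthest from the Glul median, r was 0.559. Once all arrays were moved to a common median, r was 0.257 (unadjusted p = 0.274). Over the 10 combinations of their probe sets r ranged from -0.196 to 0.664, with 8 above 0. Glul and Rhbg had r = 0.473 (permutation p = 0.0352) and rho = 0.361 (permutation p = 0.119). Without HFD replicate 3 and MSXH replicate 10, r was 0.254. It was 0.642 in HFD and 0.302 in MSXH mice, and ran from 0.357 to 0.549 without 1 mouse. The other Glul probe set had r = 0.635 with Rhbg, and both combinations had an unadjusted p under 0.05.

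The second group was that of Rnf43 with Lgr5, Tbx3 and Znrf3, and did not take in the other feedback regulators, Axin2 and Nkd1. Rnf43 had r = -0.0955 with Axin2 and -0.0192 with Nkd1. Within the group, Lgr5 with Tbx3 had r = 0.314 (permutation p = 0.176) and Znrf3 with Tbx3 0.384 (permutation p = 0.0944). Rnf43 and Lgr5 had r = 0.692 (permutation p = 0.00088) and rho = 0.627 (permutation p = 0.00348). The value was 0.754 in HFD and 0.648 in MSXH mice. Rnf43 and Tbx3 had r = 0.708 (permutation p = 0.00052) and rho = 0.564 (permutation p = 0.0106), with 0.818 and 0.610 by diet. Without MSXH replicate 5 and HFD replicate 2, the lowest Rnf43 mice, r was 0.574 with Lgr5 and 0.567 with Tbx3. The adjusted p over all genes was 0.203 with Lgr5 and 0.327 with Tbx3. Over other probe sets, r of Rnf43 with Lgr5 went down to 0.0414, and with Tbx3 it ran from -0.316 to 0.708, above 0 in 2 of 5 combinations.

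Znrf3 followed the same mice less firmly. With Rnf43 it had r = 0.529 (permutation p = 0.0154) and rho = 0.406 (permutation p = 0.0752), and r was 0.272 without MSXH replicate 5 and HFD replicate 2. With Lgr5 it had r = 0.567 (permutation p = 0.00828) and rho = 0.405 (permutation p = 0.0767), and r was 0.338 without MSXH replicates 4 and 5. Both values were thus lower without the mice named. By diet, r with Rnf43 was 0.463 in HFD and 0.680 in MSXH mice. With Lgr5 it was 0.639 in HFD mice, which include neither of the mice left out, and 0.672 in MSXH mice. With the other Znrf3 probe set, r with Rnf43 was -0.235, and Znrf3 with Lgr5 was above 0 in 1 of 4 combinations, the lowest being -0.410. Tcf7l2 was the gene of the Wnt list with the highest r for each of Rnf43 (0.677), Znrf3 (0.716) and Lgr5 (0.728), a ranking looked up after the values were known.

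**Figure D4:**
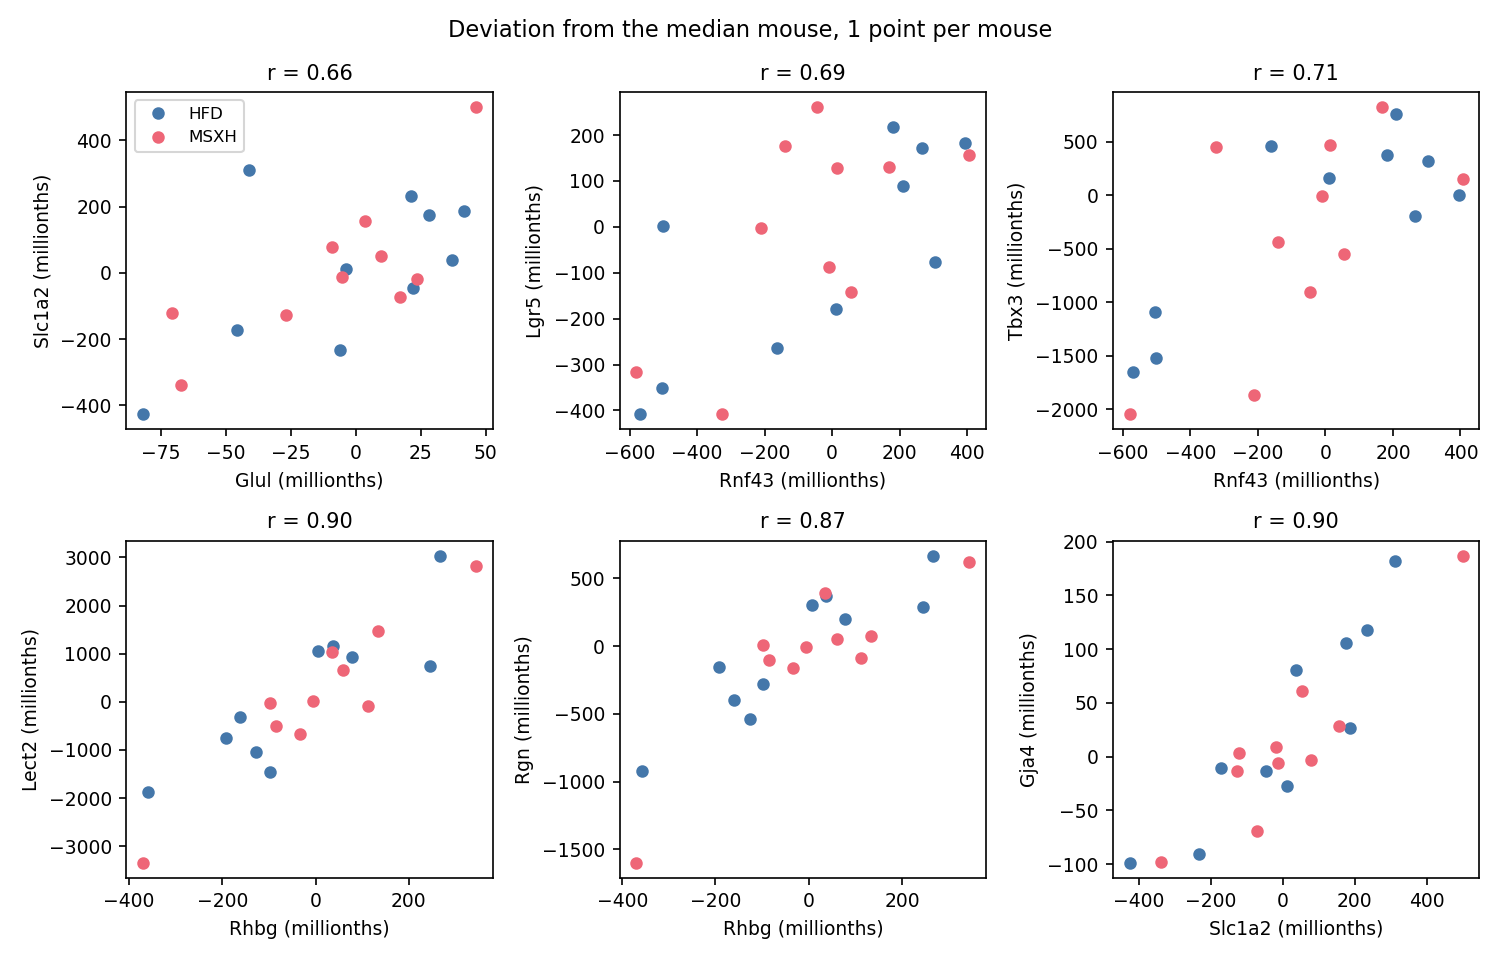
Deviation of each of 20 mice from the median mouse (both axes, millionths of a log2 unit; blue HFD, red MSXH) for 6 pairs of genes, with Pearson r above each panel. Both diets lie along the same slope in the panels of Rhbg with Lect2 (r = 0.90), Rhbg with Rgn (0.87) and Slc1a2 with Gja4 (0.90), and the Rnf43 panels show a few mice far down at the left.

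Axin2, Nkd1 and Ctnnb1 had no pair with an unadjusted Pearson p under 0.05. By rank, Znrf3 with Ctnnb1 had rho = 0.504 (permutation p = 0.0251), where r was 0.427 (permutation p = 0.0607). The lowest r of the 45 was that of Slc1a2 with Ctnnb1, -0.433 (permutation p = 0.057). Probe sets of 1 gene did not always follow each other, which limits these relations. The other Glul probe set had r = 0.825 with the one used, and 1 of the 4 others of Tbx3 had 0.967 while the remaining 3 lay between -0.243 and 0.0882. The others of Slc1a2 had 0.681, 0.558, 0.471 and -0.177. Those of Axin2 (0.252), Znrf3 (-0.070) and Lgr5 (-0.0078) were lower, and Rhbg and Rnf43 have 1 probe set each. Of the 17, 23.5% reached r of 0.5, beside 25.8% of 16752 such probe sets over all genes.

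Rhbg was the gene of the set with the most partners outside it. After adjustment 35 of 18192 genes (0.192%) were called with Rhbg, 34 with r above 0 and 1, Rasa4, below 0 (r = -0.774). This count and the partners named here were taken up after their values were seen. Lect2, a secreted hepatocyte protein that is itself a Wnt target in liver, was closest, with r = 0.898 (permutation p = 1e-05, the smallest that 100000 permutations can give) and rho = 0.853 (permutation p = 1e-05), adjusted p = 0.00136. Its r was 0.869 in HFD and 0.943 in MSXH mice, and 0.845 without the 2 mice farthest from the Rhbg median.

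The mice show this directly. Lect2 ran from -1880 through 208 to 3034 millionths in HFD mice and from -3340 through 0 to 2828 in MSXH mice. MSXH replicate 10 and HFD replicate 10 were lowest for both Rhbg and Lect2, and MSXH replicate 8 and HFD replicate 5 highest for both. The diet difference of Lect2 itself was g = -0.0048 (95% interval -0.88 to 0.87). For 24 of the 34 partners with r above 0, 32 promoters were found. CTTTGATC was in 1 of them, that of Lect2 shown above (3.125%, beside 0.938% of all promoters). The shorter CTTTGAT was in 2 (6.25%, beside 3.73%), those of Lect2 and 4931406C07Rik. CTTTGAA was in 3 (9.375%, beside 5.14%), those of Aldh1a1, Cela1 and Cyp1a2, and TGACCTTTG was in 0. These shares rest on 1 to 3 promoters, and an excess was not tested.

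Of the 19 other pericentral genes, 4 were among the 35. Rgn, the calcium-binding protein regucalcin, had r = 0.869 (permutation p = 1e-05, rho = 0.838, permutation p = 2e-05, adjusted p = 0.00601). Gulo, which makes the last step to vitamin C, had r = 0.821, Slc13a3, a dicarboxylate transporter, 0.813 and Cyp1a2 0.805, with adjusted p of 0.0171, 0.0221 and 0.0262. The remaining calls include Suclg2, a subunit of succinyl-CoA ligase (0.850), Rarres1 (0.836), Dera (0.835), Cela1 (0.834), the carboxylesterase Ces1g (0.834), the retinaldehyde dehydrogenase Aldh1a1 (0.802) and the organic anion transporter Slc22a7 (0.801). Among 17 periportal genes 0 were called. Periportal Hsd17b13, a lipid droplet protein, had r = -0.735 (permutation p = 0.00026, rho = -0.692, permutation p = 0.00115, adjusted p = 0.0728).

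Without adjustment, 7 of 19 pericentral genes followed Rhbg upward and 0 downward, and of 17 periportal genes 1 went upward and 4 downward, beside 10.4% of all genes in either direction. The median r was 0.179 for the pericentral list, -0.252 for the periportal list and 0.0191 for all genes. A difference between the lists was not tested. Cyp2e1, a classic pericentral enzyme, had r = 0.159, but its SD over the mice was 0.0293 millionths, near the rounding of the deposited values. Its r is thus not read either way.

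**Figure D5:**
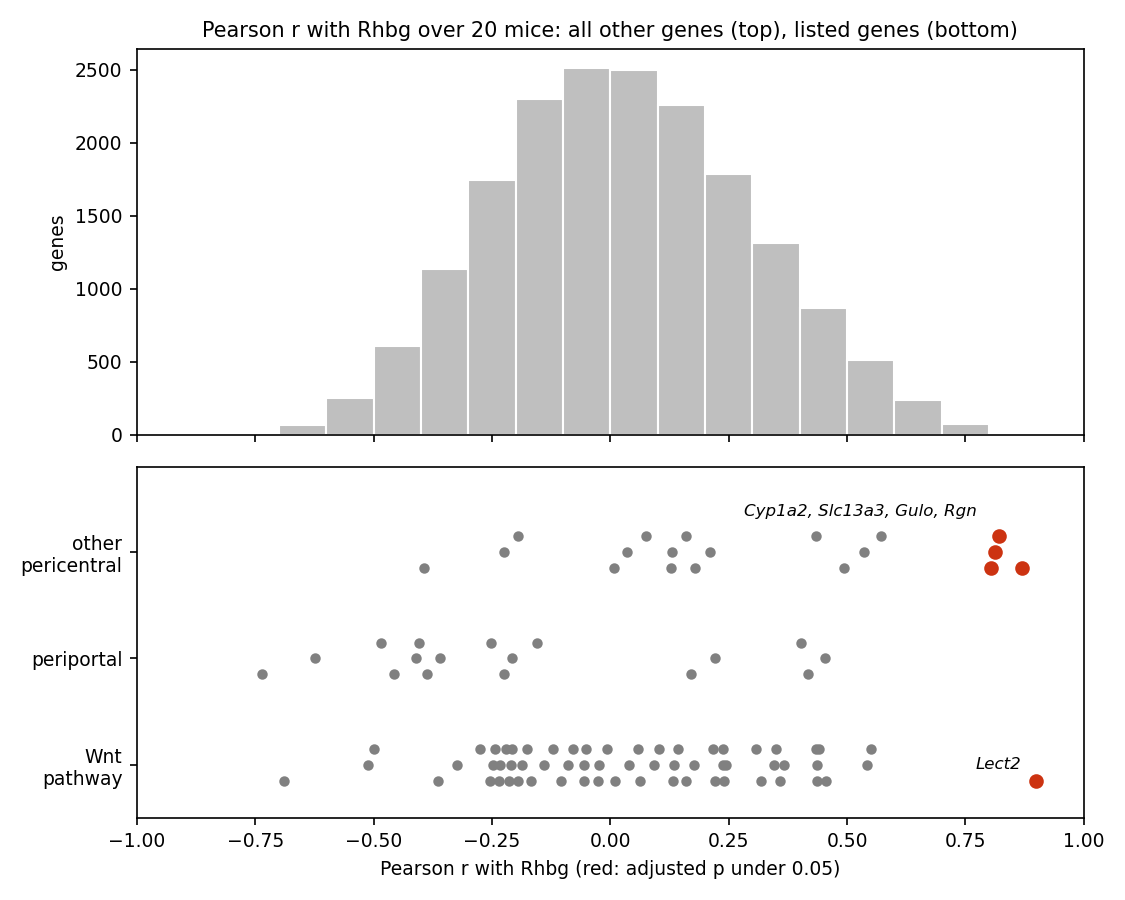
Pearson r with Rhbg over 20 mice (horizontal axis) as a histogram of all other genes (top, genes per 0.1 of r) and as 1 point per listed gene (bottom). Red points, at an adjusted p under 0.05, are Rgn, Gulo, Slc13a3 and Cyp1a2 of 19 pericentral genes and Lect2 of 61 Wnt pathway genes, and none of 17 periportal genes is red.

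Only Lect2 and Rgn kept their call without each of the 20 mice. The count of 35 fell to 2 without HFD replicate 10, to 5 without MSXH replicate 8 or MSXH replicate 10, and to 10 without HFD replicate 5 or MSXH replicate 1. It was 15 without HFD replicate 1 or HFD replicate 4, 18 without MSXH replicate 2, 19 without MSXH replicate 4, 21 without HFD replicate 6 and 23 without HFD replicate 9. It rose to 122 without HFD replicate 3 and to 136 without HFD replicate 8. Given the 3' minus 5' actin control, a measure of RNA quality that had r = -0.289 with Rhbg (permutation p = 0.215), 13 genes were called. Markers of stellate cells also moved with Rhbg: 6 of 10 had an unadjusted p under 0.05, all with r above 0, and 0 were called after adjustment. Their mean level lay between 7.906 and 7.917 log2 in HFD mice and between 7.906 and 7.922 in MSXH mice, with 8 of 10 above the median probe set level. Kupffer cell markers had 2 of 10 and endothelial markers 3 of 14 at that unadjusted p, all above 0. Over all genes 10.4% reached it, in either direction. Hepatocyte markers had r below 0 in 6 of 6 (median -0.346), and Hnf4a at -0.50 was the 1 at that unadjusted p. Lymphocyte markers had 1 of 6, Cd3e at -0.538, and bile duct markers 0 of 5. The part of these cells in the relation was not tested.

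Slc1a2 had 2 partners called (0.011% of 18192), also chosen after their values were seen. Gja4, connexin 37, a gap junction protein of vascular endothelium, had r = 0.90 (permutation p = 1e-05) and rho = 0.881 (permutation p = 1e-05), adjusted p = 0.00122. It was 0.899 in HFD and 0.918 in MSXH mice, and 0.858 without the 2 mice farthest from the Slc1a2 median. HFD replicate 3, MSXH replicate 4 and HFD replicate 5 were the 3 lowest mice for both genes, and MSXH replicate 6, HFD replicate 10 and HFD replicate 6 the 3 highest. Grasp had r = 0.842 (adjusted p = 0.0291). After quantile normalization the value for Gja4 was 0.237 (unadjusted p = 0.314), and over the 5 Slc1a2 probe sets it ranged from -0.261 to 0.90.

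Slc1a2 was also set beside the zonation lists. Of 17 periportal genes 6 had an unadjusted p under 0.05, all with r above 0, beside 8.97% of all genes. They were Arg1 (0.601), Ass1 (0.551), Cps1 (0.536) and Asl (0.526) of the urea cycle, Pck1 of glucose synthesis (0.510) and the amino acid transporter Slc7a2 (0.494). Of 19 pericentral genes 2 had r above 0 and 1 had r below 0 at that unadjusted p. After adjustment 0 of either list were called. The median r was 0.221 for the periportal and 0.144 for the pericentral list, and a difference between the lists was not tested.

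Cell markers varied with Slc1a2 as follows, beside 8.97% of all genes at an unadjusted p under 0.05 in either direction. Of 14 endothelial markers 2 had an unadjusted p under 0.05 with r above 0 and 1 with r below 0. Thbd, thrombomodulin, was highest at 0.765 (adjusted p = 0.10). Of 10 Kupffer markers 5 had r below 0 at that unadjusted p, as had 2 of 10 stellate, 2 of 6 lymphocyte and 1 of 5 bile duct markers. Of 6 hepatocyte markers 3 had an unadjusted p under 0.05, all with r above 0, led by Tat at 0.722. Cps1, named above among the periportal genes, is also on the hepatocyte list and is counted in both. After adjustment 0 markers of these lists were called. The mean level of the Kupffer markers was 8.47 log2 in every mouse, and that of the endothelial markers 7.86. The part of these cells in the relation was not tested.

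Glul had 0 genes called (0% of 18192), with 747 (4.11%) at an unadjusted p under 0.05. Of 19 pericentral genes 5 were among the latter, all with r above 0, led by Cyp1a2 (r = 0.576, permutation p = 0.00799) and Rgn (r = 0.552, permutation p = 0.0105), and 0 of 17 periportal genes were. Wnt2, the central vein ligand, had the highest r of the Wnt list with Glul, 0.628 (permutation p = 0.00268, rho = 0.513, permutation p = 0.0226). Wnt9b and Rspo3 had 0.0829 and 0.201. The 5 genes most like Glul were Pdzrn3 (r = 0.755), Xrn2 (0.738), Get4 (0.736), Ckap2l (0.732) and Arl2bp (0.728), each over 20 mice and each with an adjusted p of 0.998.

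The 5 genes most like Axin2 were Cryga (r = 0.742), Ano8 (0.666), Acadvl (0.664), Lef1 (0.664) and 3300002A11Rik (0.660), all with an adjusted p of 0.998. Lef1 is the TCF/LEF factor named above and is also a known Wnt target. The 5 most like Lgr5 were Kalrn (r = 0.838), Dhx32 (0.817), Stx17 (0.816), Shfl (0.812) and Rab3a (0.811), each with an adjusted p of 0.0534 and so just short of the threshold. In simulated data over 18193 genes, the correlation test recovered 16% of true relations of r = 0.7, 72% of 0.8 and 100% of 0.9. In the simulation, relations near the largest r among the 10 genes, 0.708, were thus mostly not recovered. The r needed in the real data differed by gene. Tmem14a was called with Rhbg at 0.762, while Kalrn with Lgr5 at 0.838 was not called. Pairs within the 10 genes also had to pass for both partners, so the simulated shares are only a rough guide.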

How the data were processed

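Total RNA of 20 livers (200 ng each) was labelled with biotin using a 3' IVT kit, per the labels' protocols, and each mouse gave 1 array. The authors deposited 1 value for each of 45101 probe sets, read here as log2 levels because they run from 5.2 to 14.96. How signals were background-corrected, normalized and summarised is not given in the sources used here. The labels number the mice of each group without stating more, so p-values measure the spread between these mice. Of 45037 probe sets that are not controls, 34945 have 1 gene in the platform annotation, 932 have several and 9160 have none. Symbols were checked against the reference by gene number for 34741 probe sets, and 0 were out of date. Each gene was read from its probe set with the highest mean, with no filter on low values. Diet differences came from lmFit and eBayes of limma 3.58.1 under R 4.3.3 (Benjamini-Hochberg over 18193 genes, adjusted p 0.05, n = 10 per group). Relations between genes used Pearson r and Spearman rho over 20 mice with two-sided tests of 100000 permutations (numpy 2.4.6, scipy 1.17.1, Python 3.11.15). Calls used Pearson p-values adjusted over all other genes, taking the larger of both partners for pairs within the set. Both procedures were tested on simulated data and called 0 genes where none had been changed. Precision is limited by the number of arrays, and signal over background is unknown.

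Genes were named by rule: all 10 genes, up to 3 genes per list at an unadjusted p under 0.05, the 5 genes with the highest r for Glul, Axin2 and Lgr5, and a fixed set of zonation and Wnt genes. Partners of Rhbg and Slc1a2, list extremes and other list genes fall outside that rule and were chosen after their values were seen. The genes and lists were chosen with earlier results of these data known. Promoters were read from the RefSeq table, and no genome or protein sequence was used. The alternatives changed the filter, scaling between arrays, the probe set, the variance model, the test, the replicate number as a block, an RNA quality control and leaving out each mouse. Figures were drawn with matplotlib 3.10.9.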

Additional observations from a re-analysis of the deposited data

How the results depend on the processing

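Alternatives left the diet comparison of the 10 genes with 0 past an adjusted p of 0.05. Genes at an unadjusted p under 0.05 went from 780 to 62 with arrays shifted to the same median, 253 after quantile normalization, 425 with genes above the median probe set level and 1557 with each probe set on its own, and from 629 to 992 when 1 mouse was left out. Leaving out 1 mouse gave 0 to 1 genes past an adjusted p (1 without MSXH replicate 5, adjusted p = 0.0490) and 0 to 1 of the 10 genes at an unadjusted p (Znrf3 without HFD replicate 2). The exact Wilcoxon rank-sum test called 0 genes, with 694 of 17973 at an unadjusted p under 0.05. With the replicate number as a block, limma called 0 genes, with 885 at an unadjusted p and 0 of the 10. Whether the numbers pair the mice was not tested. Same-numbered arrays correlated at -0.0564 to 0.279 in their deviations (mean 0.04525, beside -0.00501 for other numbers). Of 10 pairs 3 exceeded 0.1, and 3 arrays correlated best with their own number.

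Values of g changed sign for Glul (0.20), Axin2 (0.22), Znrf3 (0.028) and Ctnnb1 (0.29) with the same median, and for Axin2 (0.17), Znrf3 (0.011) and Nkd1 (-0.31) after quantile normalization. Array medians deviated by a mean of 9.65 millionths in HFD and -9.65 in MSXH mice. The same median therefore raises every MSXH minus HFD difference by the same amount, and small negative differences turn with it. Other probe sets with the opposite sign gave -0.30 and -0.30 for Nkd1, 0.049 and 0.19 for Ctnnb1, 0.082 for Znrf3, 0.28, 0.11 and 0.46 for Tbx3, -0.049 and -0.42 for Slc1a2 and -0.23 for Lgr5. Leaving out 1 mouse gave g of -0.38 to 0.047 for Glul, -0.26 to 0.18 for Slc1a2, -0.28 to 0.086 for Rnf43 and -0.34 to 0.035 for Tbx3.

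Pairs called went from 0 to 10 with the same median, where each array's shift is added to all its genes, and to 1 of 28 pairs (8 genes with spread) after quantile normalization. They stayed at 0 without each mouse. Pairs at an unadjusted p went from 6 to 18 with the same median and from 5 to 10 without 1 mouse. Genes called with Rhbg, an outcome and alternatives added after seeing the data, went from 35 to 58 with Spearman rho, 92 with the same median, 1280 after quantile normalization, 69 with genes above the median level, 13 given the actin control and 2 to 136 without 1 mouse. The value of r for Rhbg with Lect2 stayed between 0.789 and 0.943 over these alternatives and 0.871 to 0.922 without 1 mouse. Where no cause is named, the cause was not tested. Depth is not defined for arrays.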

Other observations

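Beside the relations described, a few values of the 10 genes stood out as measurements. The spread over the mice differed by orders of magnitude between genes, from 1.34 millionths of a log2 unit for Ctnnb1 to 903 for Tbx3, while Glul was at 38.6 and Slc1a2 at 220. Whether the processing narrowed each gene by the same factor is not known, so these spreads are not ranked as biology. The Tbx3 probe set used and the 1 that followed it (r = 0.967) had SDs of 903 and 1429 millionths, and the 3 that did not follow had SDs of 5.68 to 18.1.

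Prox1, a hepatocyte transcription factor, had r = 0.622 with Slc1a2 (permutation p = 0.00329, adjusted p = 0.332). Dvl1, which relays the Wnt signal from the receptor, had r = 0.706 with Tbx3. These genes were chosen after their values were seen.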
